A study of Mus musculus with 3 samples.

Results

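Very long genes gave the Foxf2 peak list of the embryonic mouse tongue 1888 peaks inside their introns. They were 7.45% of the 25330 peaks on chromosomes 1 to 19, and 7.34% of all 25707 peaks in the list. A peak was taken as a member when its midpoint lay within a protein-coding gene longer than 500 kb, outside that gene's exons and away from every transcription start site (TSS), from 1000 bp upstream to 100 bp downstream. The choice rests on gene length and position alone, and neither the peak score nor the sequence entered it. Of the 1974 peaks within the spans of such genes, 64 lay at a TSS and 22 lay in an exon of their gene, and these were left out.

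The peaks come from chromatin immunoprecipitation and sequencing (ChIP-seq) with an anti-FLAG antibody on tongues dissected at E12.5. The embryos were homozygous for a Foxf2 allele (Foxf2 FLAG/FLAG) whose endogenous protein carries a 3xFLAG epitope added by CRISPR/Cas9. The series held 2 anti-FLAG libraries and 1 input library of the same genotype, stage and tissue, and the sources used here name no ChIP from untagged embryos. Each sample carries the figure of 75 tongues, with no word on whether this counts 1 library or all, and whole tongues pool many cell types. The list gave 1 score per peak and no value per library. No comparison between libraries was therefore possible, the sequencing depth is unknown, and each p-value compares peaks of this list, which are not biological replicates.

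Foxf2 is a forkhead transcription factor of the mesenchyme that lies under many epithelia, the tongue and palate included. Forkhead proteins bind DNA through a winged helix domain that reads a short core in the major groove. Introns of very long genes can hold enhancers, and an enhancer there may serve its host gene or a neighbour across a long distance. Many of the longest mouse genes encode cell adhesion, axon guidance and synaptic proteins, and several lie at common fragile sites, which break readily when replication is disturbed.

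The forkhead core was searched in 4 forms, the form ATAAACA, the form GTAAACA, the form ATAAATA and the form GTAAATA, on both strands. Whole peaks are shown first for high-scored members and for 1 peak chosen, after its values were seen, for its many cores. They are written 5′ to 3′ on the plus strand of mm10, with each core in capitals, so that a core on the minus strand reads as its reverse complement.
Hdac9 intron, chr12:34052284-34052496: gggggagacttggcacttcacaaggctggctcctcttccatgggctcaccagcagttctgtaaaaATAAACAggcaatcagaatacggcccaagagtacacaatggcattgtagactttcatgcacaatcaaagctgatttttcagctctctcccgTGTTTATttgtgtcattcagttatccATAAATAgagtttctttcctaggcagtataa
Sdk1 intron, chr5:141415936-141416148: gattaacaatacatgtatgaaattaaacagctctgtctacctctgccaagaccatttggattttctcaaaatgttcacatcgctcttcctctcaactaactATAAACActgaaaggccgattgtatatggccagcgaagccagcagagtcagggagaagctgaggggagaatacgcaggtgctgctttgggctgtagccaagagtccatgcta
Gpc6 intron, chr14:117351409-117351621: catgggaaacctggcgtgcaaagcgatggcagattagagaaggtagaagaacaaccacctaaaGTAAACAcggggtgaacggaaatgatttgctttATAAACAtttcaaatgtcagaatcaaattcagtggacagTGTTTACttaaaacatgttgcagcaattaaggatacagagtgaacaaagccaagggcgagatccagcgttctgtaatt
Dock2 intron, chr11:34681801-34682013: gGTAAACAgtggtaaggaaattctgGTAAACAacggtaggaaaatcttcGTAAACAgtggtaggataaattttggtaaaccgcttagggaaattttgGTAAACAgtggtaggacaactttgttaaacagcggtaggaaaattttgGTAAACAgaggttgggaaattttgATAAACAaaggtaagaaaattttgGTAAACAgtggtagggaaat
The Hdac9 peak held 3 cores, the Gpc6 peak 3, the Sdk1 peak 1 and the Dock2 peak 7.

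The core nearest to the centre is shown with 12 bases on either side for the highest-scored peak of further genes with many peaks and of some of the highest-scored peaks. The coordinates are those of the peak, and the letters run along the strand on which the core reads in the forward direction.
Wwox intron, chr8:114615564-114615776: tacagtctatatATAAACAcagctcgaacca
Lrmda intron, chr14:22371251-22371463: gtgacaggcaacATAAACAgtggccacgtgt
Rad51b intron, chr12:79377458-79377670: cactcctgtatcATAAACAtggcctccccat
Robo1 intron, chr16:72470246-72470458: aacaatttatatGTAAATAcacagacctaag
Auts2 intron, chr5:132082434-132082646: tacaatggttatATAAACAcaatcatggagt
Macrod2 intron, chr2:142232954-142233166: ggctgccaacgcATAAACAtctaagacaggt
Adamtsl1 intron, chr4:86190354-86190566: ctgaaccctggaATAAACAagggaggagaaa
Rbms3 intron, chr9:116788321-116788533: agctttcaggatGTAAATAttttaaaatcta
Zfhx3 intron, chr8:107960550-107960762: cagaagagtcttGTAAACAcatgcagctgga
Slit3 intron, chr11:35370784-35370996: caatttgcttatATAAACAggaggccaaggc
Tenm3 intron, chr8:48819949-48820161: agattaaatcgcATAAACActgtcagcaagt
Smyd3 intron, chr1:179126430-179126642: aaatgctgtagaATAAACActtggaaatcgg
Ptprk intron, chr10:28395717-28395929: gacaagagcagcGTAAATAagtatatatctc
Gpc5 intron, chr14:116348627-116348839: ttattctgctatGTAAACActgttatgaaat
Erc2 intron, chr14:28165127-28165339: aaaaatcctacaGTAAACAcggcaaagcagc
The 7 bases in capitals were ATAAACA in Wwox, Lrmda, Rad51b, Auts2, Macrod2, Adamtsl1, Slit3, Tenm3 and Smyd3. They were GTAAACA in Zfhx3, Gpc5 and Erc2, and GTAAATA in Robo1, Rbms3 and Ptprk.

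Long genes almost always held an intronic peak. GENCODE lists 218 protein-coding genes over 500 kb on chromosomes 1 to 19, with 188.2 Mb of gene span, and 202 of them (92.7%) held at least 1 member. The share among the 20589 shorter genes was 18.2%, but longer genes give more room, and among 321 genes of 300 to 500 kb it was already 88.8%. The median was 7 members per long gene. There were 66 genes with 1 to 4 members, 72 with 10 or more and 21 with 20 or more, and the 20 genes with the most members held 32.0% of them. At the length limit, Pde1c (499300 bp) held 2 peaks, Dnm3 (495582 bp) 37 and Cacna1e (493771 bp) 1, against 1 in Edil3 (501752 bp), 3 in Dock1 (502986 bp) and 2 in Car10 (503722 bp).

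Some of the hosts are long only in the annotation. 6 gene models spanned 5 or more other whole protein-coding genes. Gm20388 spanned 71 genes, among them Foxf1, Foxc2 and Foxl1, and counted 80 members (chr8:119910841-124345722). Fgfr2, the fibroblast growth factor receptor gene, counted 53 members because 1 annotated transcript runs over 29 other genes (chr7:130162451-133123350). Without the 6 models, 1744 members were left, in 196 of 212 long genes, and values that turn on these models are given both ways. Of all members, 108 also lay inside another protein-coding gene, 25 in an exon of another gene and 16 in 2 long genes at once.

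Wwox, a tumour suppressor gene at a common fragile site, held the most members after those models, with 40 over its 0.913 Mb (chr8:114439655-115352708). Lrmda, a gene linked to melanocyte differentiation, held 37, and Rad51b, a gene of DNA repair by homologous recombination, held 33. Robo1, the receptor for Slit guidance cues, held 30. The forkhead repressor Foxp1, the nuclear protein gene Auts2 and the ADP-ribose hydrolase gene Macrod2 held 27 each. The matrix protein gene Adamtsl1 and the RNA-binding protein gene Rbms3 held 25 each. Zfhx3, a homeobox and zinc finger gene, held 24, while Slit3, a ligand of Robo receptors, the teneurin Tenm3 and the glypican Gpc6 held 23 each.

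**Figure D1:**
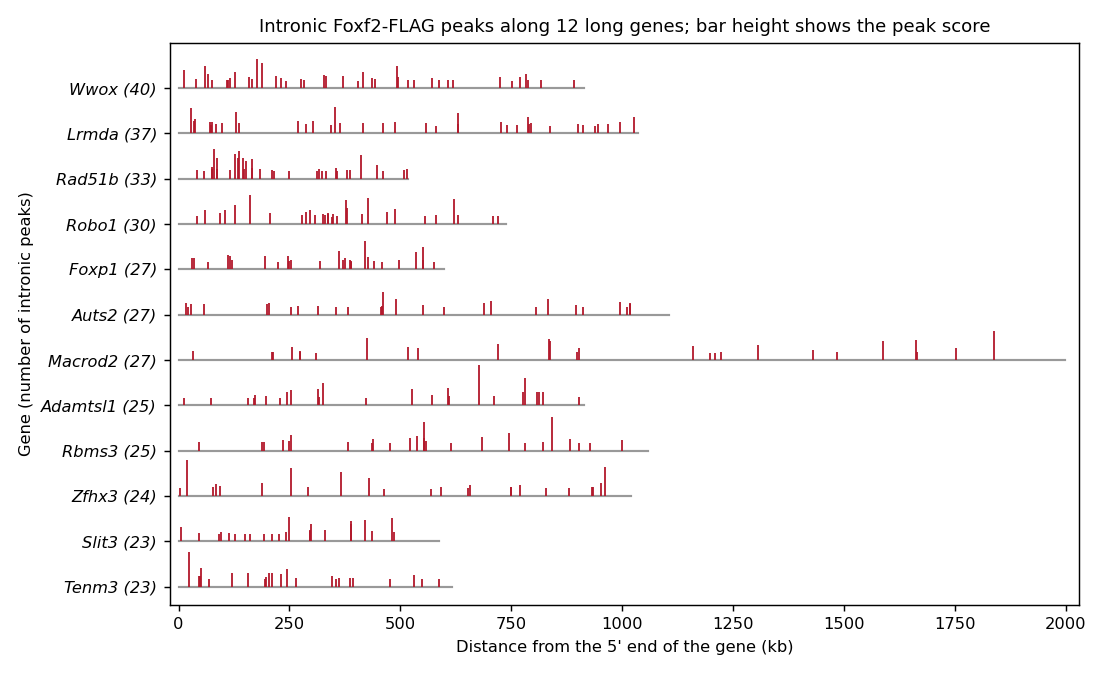
Each horizontal line is 1 gene drawn to its length from the 5′ end in kb, and each vertical bar is 1 intronic peak whose height rises with its score. With the 6 models that span other genes left out, 12 of the genes with the most peaks are shown, from 40 peaks in Wwox to 23 in Slit3 and Tenm3, and Gpc6, which also had 23, is not drawn. Peaks of Rad51b and Robo1 crowd into parts of the gene. Macrod2 has few peaks for its 1.998 Mb, and 6 of its 27 lie within 100 kb.

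Per Mb of intron, Rad51b was the densest host with 64.2 peaks (exact 95% Poisson interval 44.2 to 90.2). It was followed by Foxp1 with 46.4, Wwox with 44.3, Robo1 with 41.2, Slit3 with 39.8, the methyltransferase gene Smyd3 with 39.4, Tenm3 with 38.2 and Lrmda with 36.0. The intervals of these 8 genes overlap, since even 33 peaks leave a wide counting error. Macrod2 had as many peaks as Foxp1 but only 13.6 per Mb. The median over the 218 genes was 7.73 per Mb, with quartiles of 3.68 and 15.9.

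The dense hosts were not evenly filled. In Rad51b, 14 of the 33 members lay within 100 kb (chr12:79372127-79463665), all in intron 7 of the longest transcript. They scored from 13.0 to 74.1, and 7 of the 8 Rad51b peaks in the top decile of scores were among them. In Robo1, 13 of 30 members lay within 100 kb (chr16:72587417-72687053), yet the highest-scored Robo1 peak, with a score of 70.6, lay outside that stretch at 162 kb from the 5′ end. Tenm4, a teneurin, had 11 of 22 within 100 kb (chr7:96740516-96835143). Foxp1 had 10 of 27 (chr6:99064082-99160292), a stretch that holds its highest-scored peak, and Erc2, a presynaptic active zone gene, had 10 of 21 (chr14:28252351-28343632).

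A few long genes stood empty. The 5 longest without a member were Csmd1 (1.64 Mb), Nkain2 (1.201 Mb), Sgcz (1.14 Mb), Anks1b (1.10 Mb) and Sntg1 (0.938 Mb). Csmd1 encodes a complement-regulating membrane protein, Sgcz a sarcoglycan and Sntg1 a syntrophin. Their upper limits, from 3 peaks over the intron length, were 1.85 per Mb in Csmd1, 2.53 in Nkain2, 2.65 in Sgcz, 2.78 in Anks1b and 3.27 in Sntg1, and cover counting only. In the 11 other empty genes, which include the glutamate receptor gene Grm5, the potassium channel gene Kcnd2 and the catenin gene Ctnnd2, the limit ran up to 5.98 per Mb.

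Peaks were a little sparser in the introns of very long genes than in those of shorter genes. Members came to 10.4 per Mb of intron, against 12.1 for the 8730 intronic peaks of genes of 500 kb or less. The ratio was 0.853 (95% interval 0.811 to 0.897, counting only). Members were 17.8% of the 10618 intronic peaks while the long genes held 20.2% of the intron bases. Without the models that span other genes, density rose with gene length from 7.77 per Mb in genes up to 30 kb to 9.59 at 30 to 100 kb and 14.9 at 100 to 300 kb. It was 14.8 at 300 to 500 kb, 11.8 at 500 to 1000 kb and 7.496 above 1000 kb. The per-gene median fell alike past 500 kb, from 11.7 per Mb at 300 to 500 kb to 9.75 and then 5.92. The ratio turned to 1.04 with the length limit at 300 kb, where the dense class of 300 to 500 kb counts as long.

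**Figure D2:**
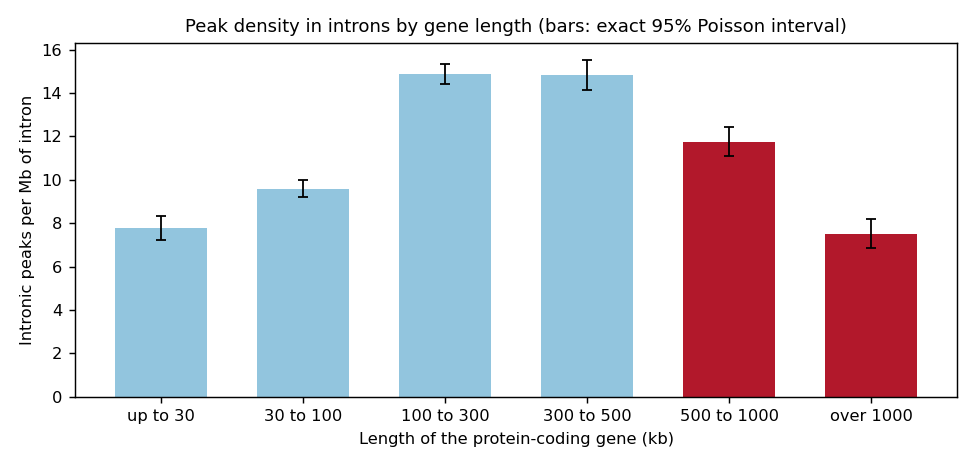
Bars give intronic peaks per Mb of intron (vertical axis) by length of the host gene in kb (horizontal axis), without the 6 models that span other genes, and error bars are exact 95% Poisson intervals that cover counting only. Red marks genes over 500 kb, at 11.8 and 7.496 per Mb, both below the 14.8 of genes of 300 to 500 kb.

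First introns held fewer peaks per Mb than later ones. In the longest annotated transcript of each host, first introns held 373 members in 42.1 Mb, or 8.87 per Mb (7.99 to 9.82). Later introns held 1426 in 131.1 Mb, or 10.9 per Mb (10.3 to 11.5), and last introns 14.8 per Mb (12.2 to 17.8). Another 108 pairs of gene and peak fell in no intron of that transcript. Without the models that span other genes the first intron held 8.06 per Mb and the later ones 10.7. In genes over 1000 kb the ratio of first to later introns was 1.10 (0.915 to 1.32), against 0.816 in all hosts. Along the gene, the first 50% held 46.0% of members (44.5% without those models). The median member lay 438 kb from the 5′ end of its host, and 26 of the 1888 members lay within 10 kb of that end.

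Scores of members began at the lowest score of all autosomal peaks, 10.1, but stopped short of the highest, 243.9. The score is the authors' own peak value, whose scale is not stated, and it is used here to rank peaks. Members scored from 10.1 to 181.9 with a median of 16.7, and other intronic peaks had a median of 16.1. The top decile of the list, scores of 38.7 and above, took in 208 members (11.02%) in 93 host genes, 9.87% of the other intronic peaks and, by construction, 10% of all peaks. The difference of 1.14 percentage points (95% Newcombe interval -0.34 to 2.75) did not pass Fisher's exact test (adjusted p = 0.303). Taking the highest-scored peak of each gene alone gave a difference of 28.4 points, where a long gene offers the best of a median of 7 peaks.

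The strongest member lay in Hdac9, a class IIa histone deacetylase gene, and ranked 12th in the list with a score of 181.9. It sat in the last of 24 introns, 865 kb from the 5′ end of Hdac9 and 94.7 kb from the TSS of Twist1, a basic helix-loop-helix factor of mesenchyme. As background, introns of Hdac9 are known to hold enhancers of Twist1. A second Hdac9 peak scored 110 and lay 26.1 kb from an annotated Hdac9 start. The other 19 Hdac9 members scored from 10.3 to 46.5, so these 2 stand well above the rest of the gene.

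The next 9 members by score were spread over 8 hosts. Gm20388 held a peak of 169.1, which lay 100 kb from the TSS of Banp. Sdk1, a sidekick adhesion protein gene, held a peak of 158.9 in its first intron, 175 kb into the gene. Gpc6, a glypican that carries heparan sulfate at the cell surface, held one of 151 in intron 3. Smyd3 held one of 138.8, whose nearest TSS was that of the kinesin gene Kif26b at 328 kb. Fgfr2 held a peak of 132.9, which lay 13.2 kb from an annotated Fgfr2 TSS and so is close to the gene under its shorter transcripts too. A second Fgfr2 member, of 115.9, lay 7.86 kb from the TSS of Chst15 and is in Fgfr2 only through the long transcript. Ptprk, a receptor tyrosine phosphatase, held a peak of 127.5, Gpc5, another glypican, one of 116.2, and Erc2 one of 111.4. Of the 100 highest-scored peaks of the list, 9 were members, while members made up 7.34% of the whole list. Whether members are more frequent among these peaks than in the list was not tested.

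Most members lay nearest to the TSS of their host. The nearest protein-coding TSS was that of the host for 1305 members (69.1%), and for 1296 of 1744 (74.3%) without the models that span other genes. No such share is given for the other intronic peaks, so it is not shown to be particular to members. The median distance to the nearest TSS was 145 kb, against 33.1 kb for the other intronic peaks. More than 100 kb separated 59.6% of members from any such TSS, against 16.6%. This distance follows in part from the length rule, so no test was made. Of the 10 highest-scored members, 4 were nearest to their host, the peaks of Sdk1, Gpc6 and Erc2 and the higher one of Fgfr2. Among the 448 members nearest to another gene, those models left out, that gene was not counted as inside the host for 339. These 339 take in 13 members of Iqschfp, whose nearest gene, Schip1, is joined into the Iqschfp model and so is not apart from it.

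Several hosts had 50% or more of their members nearest to a neighbour. In Iqschfp, a model that joins Schip1 to the gene beside it, all 13 were nearest to Schip1. In Gpc6, 17 of 23 members were nearest to Dct, a melanin synthesis gene, at 113 to 557 kb. In Tenm4, 16 of 22 were nearest to Nars2, a mitochondrial tRNA synthetase gene. In Erc2, 13 of 21 were nearest to Wnt5a, a secreted Wnt ligand of mesenchyme, at 69.5 to 289 kb and with scores up to 35.4. In Npas3, a basic helix-loop-helix gene, 13 of 20 were nearest to the prolyl hydroxylase gene Egln3. In Smyd3, 11 of 22 were nearest to Kif26b, the strongest Smyd3 peak among them. In Macrod2, 19 of 27 were nearest to Flrt3, an adhesion gene that lies inside Macrod2, and 1 was nearest to Macrod2 itself.

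Receptors and transcription factors of development stood among the neighbours. Pard3b put 9 of 18 members nearest to Nrp2, a co-receptor for semaphorins, and Cdk14 put 7 of 12 nearest to Fzd1, a Wnt receptor. Gmds put 7 of 8 nearest to Foxc1, a forkhead gene of head mesenchyme, at 35.8 to 238 kb. Wwox put 7 of 40 nearest to the transcription factor gene Maf, and Hdac9 put 6 of 21 nearest to Twist1. These genes were picked after the counts were seen, and whether the neighbours of members include more regulators than other genes was not tested. Nearness on the chromosome does not show which gene a peak serves.

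Peak density differed between lists of long genes by role. The 8 lists were written with earlier results of these data known. Their role names are approximate. Before the length limit was applied, the list of channels and receptors also named Hs6st3 and Slc8a1, and that of nuclear regulators named Ehbp1, which do not have those roles. Each list is set beside the 218 long genes, with no test. The 17 nuclear regulators (transcription factors, chromatin and RNA-binding proteins) had the highest density, a median of 19.1 peaks per Mb against 7.73 for all long genes. All 17 held a member and together they held 274. Foxp1 led with 46.4 per Mb, then Auts2 with 25.3, Hdac9 with 24.6, Npas3 with 24.5, Zfhx3 with 24.2, Rbms3 with 23.9 and the nuclear receptor gene Rora with 22.2. Rbfox1, a splicing factor gene of neurons and muscle, was lowest with 5.93. The HMG-box genes Sox5 (13 members) and Sox6 (8) had 13.9 and 14.4 per Mb, and the second long forkhead gene, Foxp2, had 18.97.

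The 7 axon guidance genes followed with a median of 14.1 per Mb and all 7 held a member. The ligand Slit3 (39.8 per Mb) and the receptor Robo1 (41.2) were the dense pair, and Robo2 had 17.9. Sema6d, a transmembrane semaphorin, had 14.1. The netrin receptors Dcc and Unc5d had 6.44 and 5.35, and the Eph receptor gene Epha6 had 1 peak, or 1.06 per Mb.

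Adhesion genes, the largest list with 34 genes, had a median of 5.49 per Mb, and 32 held a member. Tenm3 (38.2) and Tenm4 (30.8) stood apart from the other 32, the highest of which was the neuronal growth regulator gene Negr1 with 15.0. The neurexin Nrxn3 held 19 members (11.9 per Mb). Cntnap2, one of the longest genes of the mouse genome, held 10 (4.54 per Mb), and the neuroligin gene Nlgn1 held 2. The catenin gene Ctnnd2 and the adhesion receptor gene Adgrb3 held none.

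The 18 ion channel and neurotransmitter receptor genes had the lowest median, 3.99 per Mb, with 16 holding a member. The calcium-activated potassium channel gene Kcnma1 (14 members) and the calcium channel subunit gene Cacna2d3 (12) led, along with Trpm3 (12) and the L-type channel gene Cacna1c (9). The glutamate receptor genes Grid1, Grm8 and Grik2 held 2, 2 and 1.

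The remaining lists lay close to the median of all long genes. The 31 genes of intracellular signalling and the cytoskeleton had a median of 9.23 per Mb, with 19 members in the cGMP-dependent kinase gene Prkg1, 18 in the polarity gene Pard3b and 16 each in the scaffold genes Magi1 and Dlg2. The 15 matrix genes had 7.71, led by Adamtsl1 (25 members), Gpc6 (23), Thsd4 (19), a thrombospondin repeat gene of microfibrils, and Gpc5 (11). The 17 genes of receptor phosphatases, kinases and growth factors had 6.68. There, the neuregulin gene Nrg1 held 17 and Ptprd 15, after the 53 of the long Fgfr2 model. The 18 genes at common fragile sites had 8.41, led by Rad51b at 64.2, and the 69 genes in no list had 6.72.

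**Figure D3:**
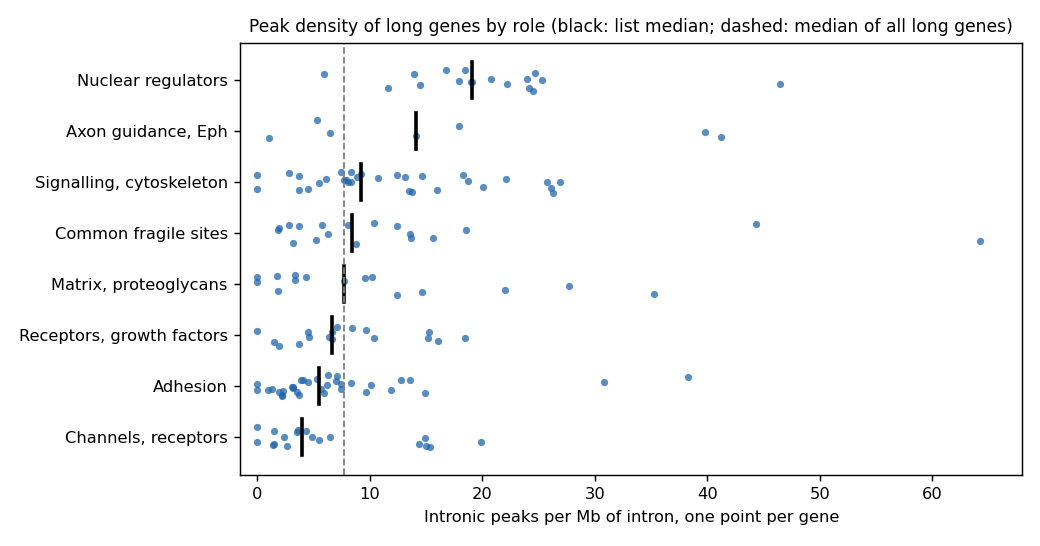
Each point is 1 long gene, placed by its intronic peaks per Mb of intron on the horizontal axis and by its role list on the vertical axis. Black bars mark list medians, from 19.1 for nuclear regulators to 3.99 for channels and receptors, and the dashed line marks the 7.73 of all 218 long genes.

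The forkhead core was common at the centre of members. Within 200 bp around the centre, 1424 of 1888 members (75.4%, exact Clopper-Pearson 95% interval 73.4 to 77.4) held at least 1 core. In a window of the same size placed 2000 bp away, the share was 20.6% on one side and 19.97% on the other. The centre thus held the core 3.72 times as often as the mean of the flanks (two-sided exact McNemar test, p = 1.59e-227). This was not particular to long genes. The ratio was 4.30 in intronic peaks of shorter genes, with flanks of 17.4% and 17.3%, and 3.81 in peaks between genes. For GTAAACA alone the share in members was 28.1% against 3.87% and 2.91%, an 8.30-fold difference (exact McNemar p = 1.65e-99). It was 9.92-fold in intronic peaks of shorter genes and 8.38-fold in peaks between genes. Of 2050 matches in the whole peaks of members, 54.3% lay within 20 bp of the centre, against 58.4% of 8952 in other intronic peaks. The form ATAAACA made up 44.0% of matches in members, GTAAACA 29.0%, ATAAATA 16.6% and GTAAATA 10.4%. In other intronic peaks these shares were 44.4%, 31.1%, 14.7% and 9.70%.

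The share with a core did not differ detectably between members and other intronic peaks. It was 75.4% in members, 74.7% in other intronic peaks and 72.5% in all peaks of chromosomes 1 to 19. The difference from other intronic peaks was 0.74 points (-1.45 to 2.84), with an adjusted p of 0.640 by Fisher's exact test over 16 properties. Among members the share rose with the score, from 71.9% in the lowest decile of scores to 85.9% in the highest. Other intronic peaks rose as well, from 67.2% to 86.6%, so the rise was not particular to members. A core stood in 55 of the 60 highest-scored members, with no like count for other peaks. Members with a core had a median score of 17.2 and those without one 15.5. Of the 464 members with none of the 4 forms at the centre, 160 (34.5%) held the shorter string TAAACA somewhere in the peak, against 33.6% of such peaks in shorter genes.

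**Figure D4:**
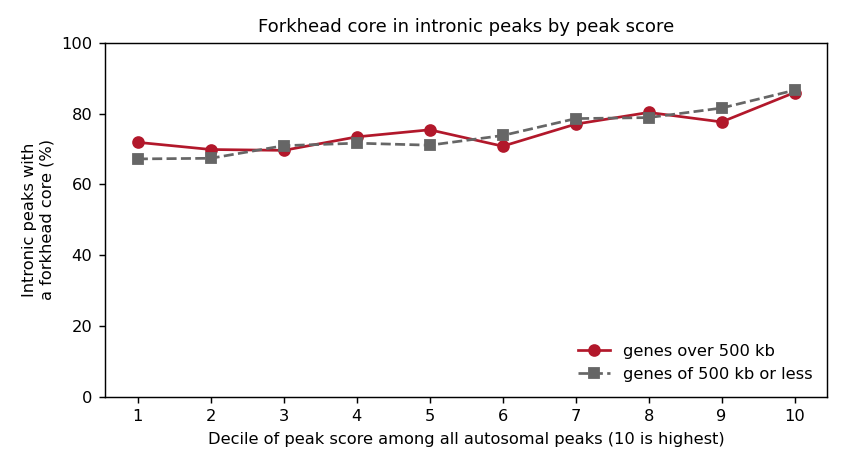
The share of intronic peaks with a forkhead core in the central 200 bp (vertical axis, percent) is drawn by deciles of the peak score of all autosomal peaks (horizontal axis), with circles for genes over 500 kb and squares for shorter genes. Members go from 71.9% to 85.9%, and the lines of the shorter and the longer genes cross several times.

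Strong members without a core were few. The highest were in Tenm4 (69.8), the astrotactin gene Astn2 (69.5), Foxp1 (68.8), Kcnma1 (67.9) and Rabgap1l (61.3). The lack of a match says only that these letters are not in those windows.

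Members more often held 2 or more cores. The share was 25.1% against 21.2% of other intronic peaks and 21.2% of all peaks, a difference of 3.83 points (1.74 to 6.002, adjusted p = 0.00525 by Fisher's exact test). Base composition moved with this result. The median GC content of the central window was 41.5% in members and 44.0% in other intronic peaks, and in the flanks it was 42.0% and 44.5%. In those flanks 2 or more cores stood in 4.71% and 4.18% of windows for members and in 3.04% and 2.98% for the others. Compared within deciles of GC content of the central window, the difference came to 0.98 points (Cochran-Mantel-Haenszel test, n = 1888 members, adjusted p = 0.814). The cores are poor in G and C and lower the GC content of the window they stand in. This comparison therefore cannot separate the number of cores from base composition. The call was also lost with the length limit at 300 kb (1.88 points) or 1000 kb (1.90), against peaks between genes (2.12) and at or above the median score (3.25).

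In 21 of the 1888 members 4 or more cores were packed into 1 peak, and no such count is given for other peaks. Central windows with 3 or more cores were not particular to members. Their share was 5.08% in members, 4.10% in other intronic peaks, 5.43% in peaks between genes and 4.51% in all peaks. Dock2, a guanine nucleotide exchange factor gene of blood cells, held 2 such peaks with 7 cores each, which scored 61.5 and 10.6. The sequence printed above shows GTAAACA returning 6 times within a repeating unit. A Ccser1 peak with a score of 35.9 held 6, and its centre was wholly masked as repeat, whereas 9.5% and 0% was masked at the centres of the Dock2 peaks. These peaks were picked after their values were seen.

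The string TGACAG, read by homeodomain factors of the TALE class such as Meis and Tgif, was the other property that passed the test. It stood in 20.9% of members, in 17.6% of other intronic peaks and in 17.9% of all peaks, a difference of 3.29 points (1.34 to 5.34, adjusted p = 0.00715 by Fisher's exact test). Its flank shares were 13.6% and 14.1% in members and 13.9% and 13.9% in the others, so the flanks did not show the difference. Within deciles of GC content it was 3.72 points (Cochran-Mantel-Haenszel test, n = 1888 members, adjusted p = 0.00244). The call was lost, with the sign kept, at 300 kb (1.67 points) and 1000 kb (2.398), against peaks between genes (1.90), with 1 peak per gene (7.498) and at or above the median score (3.76).

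The other strings did not pass in this comparison. CATCTG, an E-box of Twist-like factors, stood in 29.9% of members against 29.0% of other intronic peaks (28% of all). CAGCTG, the E-box of myogenic factors, stood in 18.8% against 19.98% (18.7% of all). GGAATG, read by Tead factors, stood in 15.8% against 15.7% (15.1% of all). TAATTA, a homeodomain site, stood in 7.57% against 6.37% (6.04% of all), and TGACTCA, the AP-1 site, in 2.54% against 3.28% (3.17% of all). For TGTGGT, read by Runx factors, the shares were 14.8% and 14.3% (13.7% of all), for ACAAAG or ACAATG, read by Sox and Tcf factors, 36.7% and 34.3% (33.2% of all), and for the Ets string GGAAGT 236 of 1888 members and 12.1% of other intronic peaks (12.6% of all). Their differences ran from -1.23 to 2.37 points, with adjusted p of 0.233 or more by Fisher's exact test. With the length limit at 300 kb, TAATTA (2.095 points, adjusted p = 0.000706) and ACAAAG or ACAATG (2.91 points, adjusted p = 0.0122) passed Fisher's exact test. GTAAACA alone stood in 28.1% against 29.6% (27.4% of all, adjusted p = 0.347 by Fisher's exact test).

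Peak shape, repeats and spacing did not pass the test either, but their calls changed with the genes compared. The focus ratio, the authors' measure taken here as the sharpness of a peak, fell in its top decile for 10.1% of members, 11.1% of other intronic peaks and 10.2% of all. A centre masked as repeat over at least 50% of its length was found in 2.17%, 2.90% and 3.26%. Another peak lay within 10 kb of 37.0% of members, 38.8% of other intronic peaks and 36.9% of all. Adjusted p-values were 0.283 to 0.347 by Fisher's exact test, and the intervals of the 3 differences reached from -4.19 to 0.62 points. Members had a neighbour within 10 kb less often than intronic peaks of genes of 100 to 500 kb, by -4.78 points (adjusted p = 0.00381, Fisher's exact test). That difference was -7.21 points with the length limit at 1000 kb (adjusted p = 0.00393, Fisher's exact test) and 2.30 at 300 kb (adjusted p = 0.0705). At 300 kb the focus ratio (-2.26 points) and repeat-masked centres (-1.16) also passed, both with an adjusted p of 0.00249 by Fisher's exact test. Against peaks between genes, repeat-masked centres passed at -1.81 points (adjusted p = 0.00101, Fisher's exact test).

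**Figure D5:**
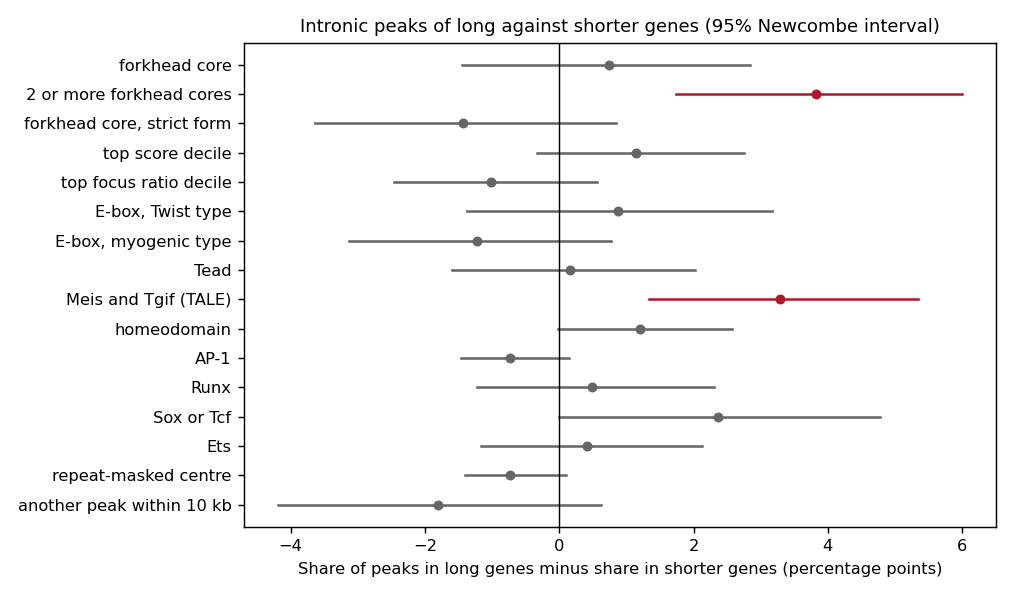
Points give the share of members minus the share of intronic peaks of shorter genes in percentage points (horizontal axis) for 16 properties (vertical axis), with 95% Newcombe intervals that treat peaks as independent. Red marks the 2 properties with an adjusted p of up to 0.05, 2 or more forkhead cores at 3.83 points and the TALE string at 3.29 points.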

How the data were processed

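Per the labels and design text, DNA from 2 anti-FLAG ChIP samples and 1 input sample was made into libraries with the ThruPLEX kit and sequenced on a NextSeq500. Per the submitters' processing notes, reads were handled with Bowtie2 2.4.1 and SAMtools 1.7.1 in build mm10, and peaks were called with HOMER. The sources used here give neither its version and settings nor whether the ChIP samples were pooled. Each peak has a score and a focus ratio, a fraction, both as deposited by the authors. The column is headed focus ratio or region size, and was read as the former because its values lie below 1.

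Members were chosen with GENCODE M21 basic, and sequence was read from GRCm38. The score orders peaks and supports no comparison of samples. Tests treat peaks as units. Flanks were compared by the exact McNemar test, taking the larger p of the 2 sides. The 16 properties were compared by the two-sided Fisher's exact test, with Benjamini-Hochberg adjustment and a threshold of 0.05. Strings and repeats were read in the central 200 bp, while score, focus ratio and spacing were those of the peak. Strings were matched on both strands, matches may overlap, and each string was searched apart. Intervals cover counting only. Densities and role lists have no test. The peak that an interval counts is not independent of its neighbours in 1 gene.

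The members, role lists and strings were chosen with earlier results of these data known. Genes named are the 12 with the most members, the 8 densest with at least 5, hosts of the 10 highest-scored members, the 5 longest without a member and up to 4 per role list. Other genes were chosen after their values were seen, among them neighbours, list members of low density and genes at the length limit. Alternatives moved the length limit, window, core form, flank distance, exon rule, score, comparator, clustering and TSS margin. Leaving out the 6 models that span other genes, and comparing within deciles of GC content, were added after seeing the data. The tests were tried on simulated data. Versions were scipy 1.17.1, numpy 2.4.6, matplotlib 3.10.9, pandas 2.3.3 and Python 3.11.15.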

Additional observations from a re-analysis of the deposited data

How the results depend on the processing

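No paired analysis was possible because the list holds no values per library. The enrichment of the core at the centre over the flanks kept its direction and its side of the threshold under each alternative tried. The difference in core share from other intronic peaks, 0.74 points, turned to -0.40 with the limit at 300 kb, -1.4996 at or above the median score, -1.43 with GTAAACA alone and -0.40 within deciles of GC content, none past the threshold (adjusted p 0.318 to 0.814, Fisher's exact or Cochran-Mantel-Haenszel test). The difference in the top decile of scores, 1.14 points, was -0.74 with the limit at 1000 kb and 28.4 with 1 peak per gene (Fisher's exact test, adjusted p = 1.35e-17). That setting kept the highest-scored peak of each gene, and long genes offer more peaks to choose from. It therefore cannot show whether scores differ. Of the other 14 properties, 2 passed in the report. The count was 4 with the limit at 300 kb, neither of those 2 among them, 3 against genes of 100 to 500 kb, where spacing was added, 0 at or above the median score, and 1 with the limit at 1000 kb, against peaks between genes, with 1 peak per gene and within deciles of GC content. The density ratio, 0.853, became 1.04 at 300 kb, 0.703 at 1000 kb and 0.907 at or above the median score. There were 3644 members at 300 kb and 650 at 1000 kb. The ratio of first to later introns, 0.816, became 1.10 at 1000 kb. The cause of these shifts was not tested. The unknown depth limits all counts, since a weaker site may lie under the caller's threshold.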
